A study of Homo sapiens with 6 samples.

Results

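The step from day 3 to day 4 of a human cardiac organoid differentiation was described from 2 libraries, 1 for each day. The cells were H9, an established line of human embryonic stem cells, and 10 organoids were harvested at each of 6 time points, from day 0 through days 2, 3, 4 and 6 to day 30. Every library carries the cell type label of embryonic stem cell and differs from the others in its day alone. No agent, dose or medium is named for any day, so what was added between day 3 and day 4 is not given in the sources used here. Expression was read as FPKM, the number of fragments per kilobase of gene, scaled by library size, which allows levels of different genes to be compared per length. Of 58735 genes in the table, 16376 reached 1 FPKM on day 3 or day 4 and were compared. A gene below 1 FPKM on day 3 was compared only through its day 4 level, so it could only be called higher. Likewise, a gene below 1 FPKM on day 4 could only be called lower. A gene was called higher or lower when log2(FPKM + 1) differed by at least 1 and the 95% interval of its fold, computed from whole reads, excluded 1. With 1 library per day these intervals cover counting error only, no p-value was given, and the words rose and fell refer to called genes. In bulk RNA of this kind, fewer cells of a type and less RNA per cell cannot be told apart.

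Heart muscle forms from mesoderm that leaves the primitive streak under WNT, NODAL and BMP signals and passes through a short state marked by MESP1 and MESP2. Its cells then switch on the factors of the heart fields, among them ISL1, NKX2-5, HAND2 and GATA factors, before genes of the contractile apparatus appear. Endothelial and blood progenitors arise from neighbouring mesoderm through ETV2, TAL1 and LMO2. Stem cells and early mesoderm rely largely on glycolysis, while heart muscle cells later depend on mitochondrial respiration.

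On day 4, 403 genes were higher (2.46% of those compared) and 366 were lower (2.23%). Among 12071 protein-coding genes, 223 rose (1.85%) and 193 fell (1.6%), or 3.45% together. Genes that the table assigns to a transcription factor family held a larger share of calls, with 43 of 1031 higher (4.17%) and 28 lower (2.72%), or 6.89% together. For 261 of the higher genes (1.59%) and 231 of the lower (1.41%) the interval itself lay past 2-fold. Over all compared genes the median difference was -0.0041 in log2(FPKM + 1), with a 5th percentile of -0.84 and a 95th of 0.90. The day 3 library held 13500887 reads and the day 4 library 14890104. Reads of mitochondrially encoded genes made up 2.92% on day 3 and 5.15% on day 4, against 7.51%, 5.93%, 3.86% and 1.91% on days 0, 2, 6 and 30. When library totals left these genes out, 466 genes were higher and 353 lower. Called protein-coding genes had a median of 697 reads over both days, and 14 of them had under 50. Called long noncoding genes had a median of 29 reads.

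**Figure D1:**
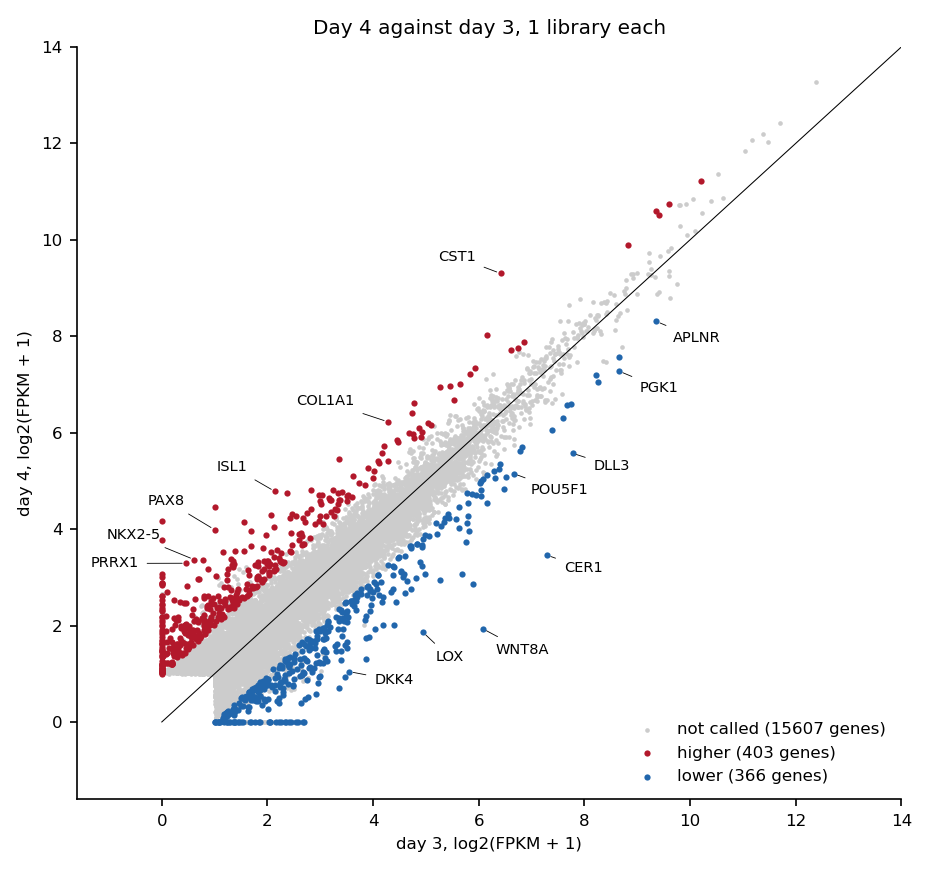
Each point is 1 of the 16376 genes compared, with log2(FPKM + 1) on day 3 on the horizontal axis and on day 4 on the vertical axis, and the line marks equal levels. Most genes lie near the line, the 403 higher genes (red) include PRRX1, NKX2-5, ISL1 and CST1, and the 366 lower genes (blue) include WNT8A, CER1, LOX and DLL3.

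Several factors that define heart progenitors rose. Of 20 measured cardiac progenitor factors, 6 rose, 2 fell and 12 were not called, with a median difference of 0.44 in log2(FPKM + 1) against -0.0041 over all genes. NKX2-5, a homeobox factor of early heart cells at chr5:173232109-173235357 on the minus strand, was at 0.230, 0.623, 0.533, 9.31, 8.84 and 8.12 FPKM in the order of the 6 days. It was below 1 FPKM through day 3 and then stood between 8.12 and 9.31 FPKM in all later libraries. From 16 reads on day 3 to 308 on day 4, the fold was 17.5 (95% interval 10.6 to 31.0). ISL1, the LIM homeobox factor of the second heart field, was at 0.0478, 0.539, 3.41, 26.5, 15.96 and 1.24 FPKM in day order. Day 4 was its highest library, 7.77-fold above day 3 (6.52 to 9.32). HAND2, a basic helix-loop-helix factor of the heart and branchial arches, was at 0, 0.0517, 1.24, 10.5, 41.0 and 95.4 FPKM. Unlike ISL1 it went on to higher values on days 6 and 30, and its fold from day 3 to day 4 was 8.48 (6.55 to 11.2).

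TBX2, a T-box repressor of the non-chamber myocardium, had no read on days 0 and 2 and was at 0.335, 4.57, 11.3 and 16.2 FPKM on days 3, 4, 6 and 30. Its fold from day 3 to day 4 was 13.6 (9.34 to 20.6), and 29 reads lay behind the day 3 level. NKX2-6, a relative of NKX2-5, had 1 read on day 3 and 78 on day 4, or 0.077 and 5.45 FPKM, with a fold of 70.8 and an interval of 12.3 to 2832. GATA5 was at 0.345, 0.814, 3.76, 8.95, 32.1 and 16.2 FPKM, and its day 4 level was 2.38-fold above day 3 (1.95 to 2.91), a call lost when the median of genes of like GC content was subtracted. All 3 genes had higher values on day 6 than on day 4.

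Several other core heart factors were not called, and some were hardly present. GATA4 was at 26.0 and 29.3 FPKM on days 3 and 4, and GATA6 at 63.9 and 42.8 FPKM, so both were already abundant on day 3. Neither was called, although GATA6 was 1.49-fold lower on day 4 (1.42 to 1.57). HAND1 was at 121 and 193 FPKM, a fold of 1.60 (1.53 to 1.68) that stayed below the call. TBX20 was at 2.86 and 4.39 FPKM, a fold of 1.53 (1.15 to 2.06) that was not called either. TBX5 had 11 and 17 reads and MEF2C had 6 and 5, which left both below 0.25 FPKM on either day, and both first passed 1 FPKM on day 6, at 3.12 and 1.45 FPKM. FOXC1 and FOXC2, forkhead factors of mesoderm and the second heart field, fell. FOXC2 was at 0.285, 1.18, 15.3, 2.79, 1.14 and 1.26 FPKM in day order, a single high library on day 3, and lay 5.49-fold lower on day 4 (4.54 to 6.69).

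Of 15 measured contractile genes, 3 rose, none fell and 13 differences were positive, with a median difference of 0.36. Summed over the whole list, the level was 163 FPKM on day 3 and 201 on day 4, against 199 on day 0. MYH6, the alpha myosin heavy chain, was at 0.140 and 1.32 FPKM on days 3 and 4, a fold of 9.43 (5.33 to 18.2). MYL4, an atrial light chain, was at 2.98 and 8.70 FPKM and TNNC1, cardiac troponin C, at 9.19 and 23.5 FPKM. TNNT2, which defines heart muscle cells, was at 0.182 and 0.497 FPKM and was first above 1 FPKM on day 6, at 9.83 FPKM. ACTN2 and NPPA had fewer reads on day 4 than on day 3, 62 against 65 and 5 against 7. MYL7, an atrial light chain and the remaining defining marker of muscle cells, was at 2.44 and 5.82 FPKM, a fold of 2.38 (1.72 to 3.36) just below the call, and at 336 FPKM on day 6. Of the 5 defining markers, MYH6 and MYL7 were above 1 FPKM on day 4, and TNNT2, ACTN2 and NPPA were not. MYL7 was already at 1.41 FPKM on day 2, while MYH6 was below 1 FPKM through day 3.

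Among factors of the lateral plate and of mesenchyme, 5 of 15 measured members rose and 1 fell, while 8 of the 15 differences were negative. Of the 5, PAX8 and PAX2 also stand on the list of intermediate mesoderm and kidney. The list's median difference was -0.11, and 0.018 when both libraries were scaled without the mitochondrially encoded genes. PRRX1, a paired-related homeobox factor of limb and lateral mesenchyme, was at 0.0083, 0.015, 0.38, 8.79, 17.2 and 10.4 FPKM in day order. Its 45 reads on day 3 and 1146 on day 4 gave a fold of 23.1 (17.2 to 31.9). PAX8, a paired-box factor known from kidney and thyroid, was at 0, 0.0084, 0.999, 14.9, 0.586 and 0 FPKM, so that day 4 was the only library above 1 FPKM. It lay 14.9-fold above day 3 (12.2 to 18.3), and PAX2, its close relative, was at 1.44 and 4.18 FPKM. FOXF2 and TCF21, factors of splanchnic mesoderm and epicardium, reached 3.69 and 1.61 FPKM on day 4 from 1.19 and 0.306 FPKM, and TCF21 was not called after the same GC subtraction. BARX1 fell from 13.8 to 5.16 FPKM, while TWIST1 (10.8 and 7.94 FPKM), SNAI1 (42.4 and 33.4 FPKM) and SNAI2 (10.96 and 9.38 FPKM) were not called.

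Among the 39 HOX genes, which give cells their position along the body axis, 8 passed 1 FPKM and all 8 lie in the HOXB cluster on chromosome 17. Of these, 6 rose and none fell, where 1.85% of all protein-coding genes rose and 1.6% fell. HOXB1, HOXB4, HOXB5, HOXB6, HOXB8 and HOXB9 were below 1 FPKM on day 3, so only a rise could be called for them. HOXB2 was at 0.0589, 0.824, 5.37, 17.7, 41.6 and 14.2 FPKM in day order, the highest HOXB gene on days 3, 4 and 6, and its fold was 3.29 (2.78 to 3.90). HOXB3 was at 2.48 and 6.82 FPKM on days 3 and 4, and HOXB4 at 0.520 and 2.39 FPKM. HOXB6 had no read on day 3 and 53 on day 4, at least 16.03-fold higher against a floor of 3 reads on day 3, and the 95% counting interval of its fold began at 12.6. HOXB8 and HOXB9 reached 1.70 and 2.06 FPKM from 0.068 and 0.405 FPKM. HOXB1 (0.648 and 1.89 FPKM) and HOXB5 (0.342 and 1.18 FPKM) lay below the call, and HOXB7 and HOXB13 stayed under 0.34 FPKM. The HOXA, HOXC and HOXD clusters held 11, 9 and 9 genes, and no gene in them was above 0.385 FPKM on either day. Summed over the HOXB cluster the level was 10.1 FPKM on day 3, 35.4 on day 4 and 129 on day 6. Some HOXB genes overlap one another, and whether counting separated their reads is not given in the sources used here.

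**Figure D2:**
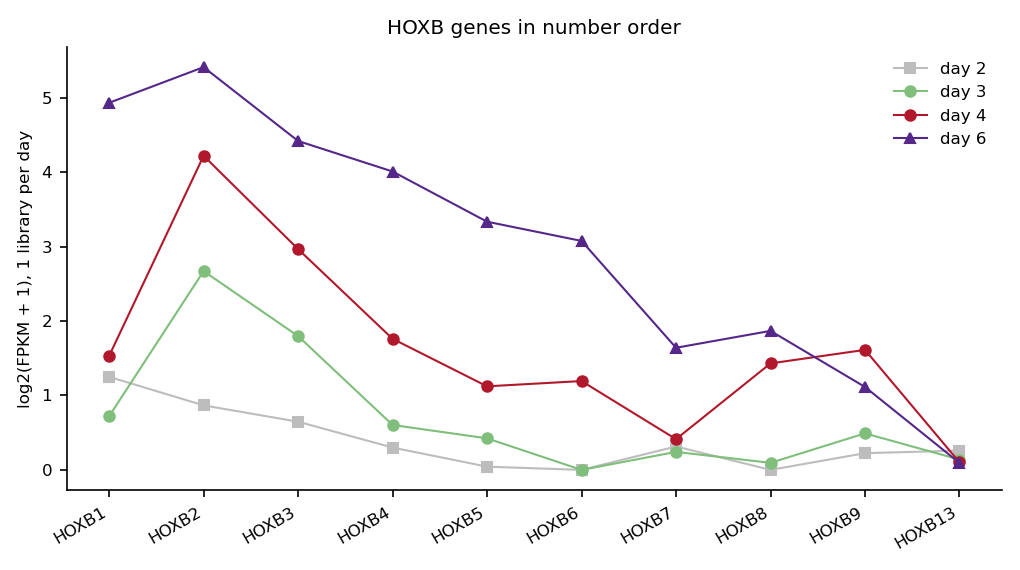
Lines give log2(FPKM + 1) of the 10 HOXB genes in number order in the libraries of days 2, 3, 4 and 6, 1 library per day. HOXB2 is highest on days 3, 4 and 6, and HOXB9 is the 1 gene among those called whose day 6 level of 1.17 FPKM is below its day 4 level of 2.06 FPKM.

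Factors of the endothelial and blood lineages rose at the same step. Of 18 listed markers 11 were measured, and of these 7 rose and none fell, with a median difference of 1.27. Over all protein-coding genes 1.85% rose and 1.6% fell. Some, such as TAL1, FLI1 and SOX7, were below 1 FPKM on day 3, so only a rise could be called for them. The summed level over the whole list was 83.1 FPKM on day 3 and 152 on day 4. ETV2, the ETS factor that starts the endothelial and blood programme, was at 0.192, 0.606, 1.26, 5.97, 1.45 and 0.527 FPKM in day order. Its highest library was day 4, 4.72-fold above day 3 (3.34 to 6.84). LMO2, a bridging protein in TAL1 complexes, was at 1.95 and 10.6 FPKM, also highest on day 4, with a fold of 5.46 (4.34 to 6.93). TAL1 had 1 read on day 3 and 142 on day 4, at 0.012 and 1.58 FPKM, and was at 5.47 FPKM on day 6. FLI1 was at 0.068 and 2.14 FPKM, a fold of 31.3 (15.7 to 73.3), and SOX7 at 0.303 and 2.14 FPKM, a fold of 7.07 (4.04 to 13.4). SOX18 and the junction gene ESAM also rose, to 7.67 and 1.95 FPKM. GATA2 was at 1.49 and 5.68 FPKM. The defining surface markers were still low, with PECAM1 at 0.198 and 0.326 FPKM and CDH5 at 0.206 and 0.874 FPKM. KDR, the VEGF receptor of these progenitors, was at 28.4 and 51.3 FPKM and lay below the call.

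Factors of the primitive streak and early mesoderm had lower values on day 4 in 16 of 20 measured members. Of these 20, 8 fell and 1 rose, with a median difference of -0.91. MESP1, the basic helix-loop-helix factor at the root of heart mesoderm, was at 0.0581, 25.2, 65.2, 24.7, 0.879 and 0.513 FPKM in day order. MESP2 followed the same order, at 0.425, 4.84, 52.9, 12.2, 0.487 and 0 FPKM. Both were highest on day 3, and the folds down to day 4 were 2.64 for MESP1 (2.45 to 2.86) and 4.33 for MESP2 (3.85 to 4.89). GSC, a homeobox factor of the anterior streak, was at 0.109, 60.0, 13.5, 2.35, 0.641 and 0.192 FPKM, and lay 5.74-fold lower on day 4 than on day 3 (4.19 to 8.02). MIXL1 was at 472, 91.1 and 33.1 FPKM on days 2, 3 and 4. In contrast to the MESP genes, both had passed their highest library on day 2. ZIC2, LHX1, FOXH1 and TBX6 fell by 2.44-fold, 2.16-fold, 2.09-fold and 2.10-fold. EOMES (101 and 52.6 FPKM) and TBXT (10.4 and 6.28 FPKM) were lower without being called. EVX1, a homeobox factor of the posterior streak, was the member that rose, from 10.4 to 23.0 FPKM, and it was not called when values were scaled to TPM.

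Pluripotency factors fell in 4 of 14 measured members and rose in none. POU5F1 was at 561, 352, 100, 34.5, 3.68 and 0.280 FPKM in day order, 2.90-fold lower on day 4 than on day 3 (2.74 to 3.08). SOX2 was at 74.7, 19.6, 7.41, 1.86, 0.184 and 0.0322 FPKM, 3.98-fold lower (3.06 to 5.22). NANOG was at 2.12 and 0.434 FPKM and FOXD3 at 3.04 and 0.698 FPKM. All 4 were highest on day 0 and below 4 FPKM on day 6. TDGF1 (114 and 99.9 FPKM) and ZFP42 (18.5 and 16.7 FPKM) were not called.

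**Figure D3:**
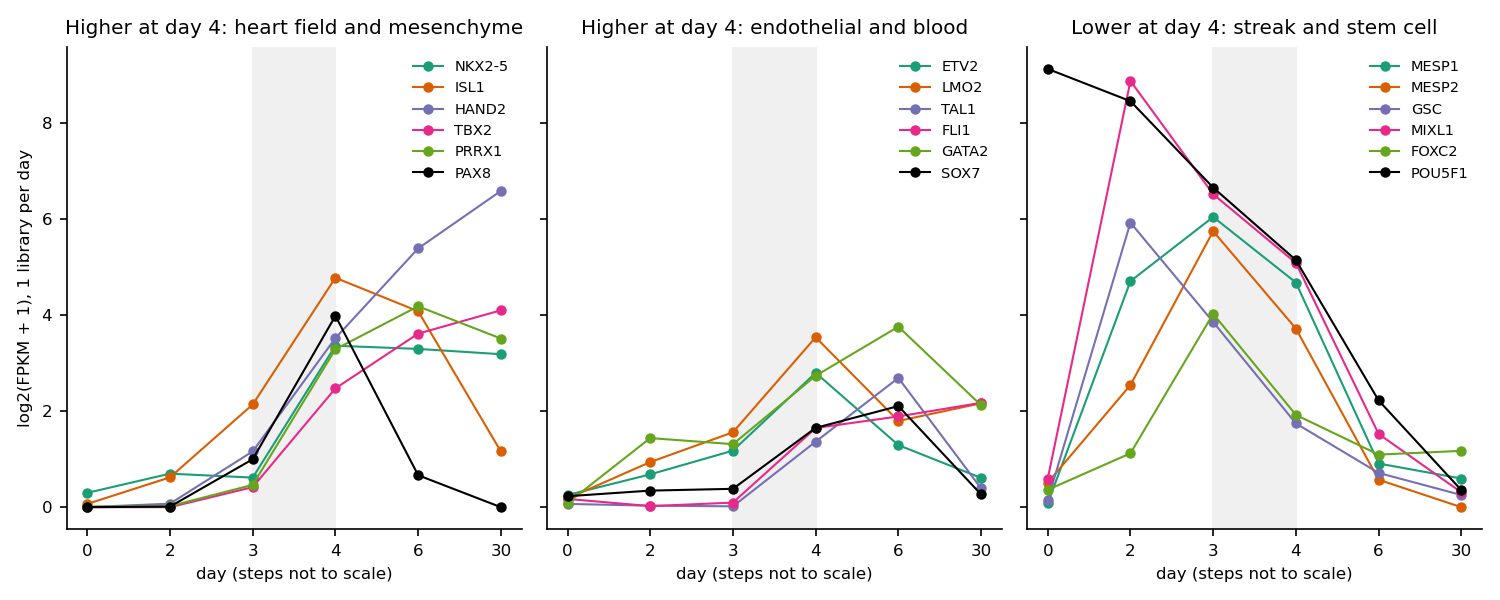
The 3 panels plot log2(FPKM + 1) against day, 1 library per day and with day steps not to scale, for 6 factors each, and the grey band marks the step from day 3 to day 4. NKX2-5 rises from 0.533 to 9.31 FPKM and ETV2 from 1.26 to 5.97 FPKM within the band, while MESP1 falls from 65.2 to 24.7 FPKM.

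The families of these factors did not move as blocks. Of 14 measured SOX genes, 3 rose (SOX7, SOX8 and SOX18) and SOX2 fell. SOX8 was at 2.77 and 11.3 FPKM, and SOX17, which marks endoderm and also endothelium, at 191 and 196 FPKM. Of 28 FOX genes, FOXF2 and FOXI3 rose and 5 fell, among them FOXB1 from 2.43 to 0.350 FPKM. Of 5 GATA genes, GATA2, GATA3 and GATA5 rose. GATA3 was at 15.2 and 36.0 FPKM. The T-box family had 1 gene up, TBX2, and 1 down, TBX6, of 10 measured. Among 404 measured genes named ZNF, 1 rose, ZNF703, from 2.71 to 7.75 FPKM, and none fell, while 4.7% of all genes were called in either direction. SP6 rose from 17.5 to 52.0 FPKM as the 1 called gene of 19 in the KLF and SP family. In the table's own family column, homeobox genes held the most calls, with 13 of 62 higher and 10 lower, followed by basic helix-loop-helix genes with 8 of 53 higher and 3 lower.

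Markers of other cell types were read the same way. None of the 12 measured endoderm markers was called, where 3.45% of all protein-coding genes were called in either direction. FOXA2 (66.2 and 85.4 FPKM) and SOX17 were abundant on both days. Neuroectoderm markers SIX3 and OTX1 fell, to 1.15 and 0.144 FPKM, and PAX6 and SOX1 had at most 3 reads on either day. In the neural crest list NGFR and FOXD3 fell, and SOX10 was at 2.65 and 1.54 FPKM. Of the amnion list, ISL1, GATA3 and HEY1 rose and TFAP2C fell, while the defining markers TFAP2A and VTCN1 had at most 6 reads and GABRP was at 0.377 and 0.438 FPKM. ISL1 also stands on the list of cardiac progenitor factors and GATA3 on that of intermediate mesoderm. Paraxial mesoderm genes fell in 4 of 9, MESP2, FOXC2, TBX6 and RIPPLY2, while RIPPLY1 rose. Of 12 epicardial markers 4 were measured, of which TCF21 and LRRN4 rose and none fell, with a median difference of 0.96. TCF21, at 0.306 FPKM on day 3, was measured only through its day 4 level. The summed level over the whole epicardial list was lower on day 4, at 788 FPKM on day 3 and 637 on day 4. LRRN4 was at 7.98 and 24.1 FPKM, 3.02-fold higher (2.66 to 3.44), while the defining markers WT1 and UPK3B had at most 5 reads on either day. Of 5 measured markers of intermediate mesoderm and kidney, PAX8, PAX2 and GATA3 rose and LHX1 fell, with a median of 1.08.

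Signalling genes that fell included ligands of the WNT, NODAL, NOTCH and FGF pathways and the secreted inhibitors CER1, DKK4 and LEFTY2. Of 8 measured WNT ligands, 2 fell and none rose, with a median difference of -0.95, and 7 of the 8 differences were negative. WNT8A, a ligand of the streak, was at 0, 16.4, 66.5, 2.82, 0.277 and 0.0387 FPKM in day order. It was highest on day 3 and lay 23.6-fold lower on day 4 (19.2 to 29.4), the greatest difference among called protein-coding genes that fell. WNT5A, a noncanonical ligand, was at 30.5 and 7.40 FPKM, 4.12-fold lower (3.82 to 4.44). WNT3 was at 15.1 and 7.40 FPKM and WNT3A at 2.28 and 0.647 FPKM, neither called. Summed over all 19 ligands, the level was 126 FPKM on day 3 and 29.1 on day 4. RSPO3, an agonist of WNT receptors, fell from 6.82 to 0.896 FPKM.

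Secreted WNT inhibitors moved in both directions. CER1, which binds WNT, NODAL and BMP ligands, was at 0.963, 408, 156, 10.0, 0.762 and 2.93 FPKM in day order, 15.6-fold lower on day 4 than on day 3 (13.4 to 18.1). DKK4 was at 597, 10.7 and 1.06 FPKM on days 2, 3 and 4, a fold of 10.1 (5.89 to 18.5) at the last step. SFRP5, an inhibitor found in the foregut and heart-forming region, rose from 13.9 to 37.6 FPKM, 2.70-fold (2.39 to 3.04). DKK1 was at 52.6 and 27.7 FPKM and SFRP1 at 97.8 and 93.6 FPKM, neither called. On the receiving side, 2 of 18 measured receptors rose, against 1.85% of all protein-coding genes. These were FZD4, from 6.99 to 22.9 FPKM, and FZD9, from 1.88 to 5.06 FPKM. FZD7, the most abundant of the receptors, was at 301 and 287 FPKM. Of 15 measured WNT target genes 1 rose, LEF1, from 9.12 to 22.1 FPKM, while AXIN2 was at 8.31 and 8.20 FPKM and SP5 at 183 and 171 FPKM.

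Genes of the NODAL pathway fell in 4 of 17 measured members and rose in none. NODAL was at 1.95, 49.3, 2.64, 0.449, 1.03 and 0.478 FPKM in day order, and its 64 and 12 reads gave a 5.88-fold lower level on day 4 (3.14 to 11.96). LEFTY2, its secreted feedback inhibitor, was at 6.56 and 0.503 FPKM, 13.0-fold lower (8.16 to 22.1). GDF3 fell from 1.74 to 0.306 FPKM on 31 and 6 reads, and FOXH1, the DNA-binding partner of the SMADs in this pathway, from 83.7 to 40.0 FPKM. The ligands and inhibitor were thus close to or below 0.5 FPKM on day 4. The receptor ACVR2B (13.4 and 13.1 FPKM) and the co-receptor CFC1 (40.6 and 43.3 FPKM) were not called. CFC1 has a near-identical copy, CFC1B, and their reads may not have been separated.

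BMP response genes had the highest median difference of the signalling lists. Of 10 measured, 5 rose, none fell and all 10 differences were positive, with a median of 1.03 in log2(FPKM + 1). MSX1 and MSX2, homeobox genes switched on by BMP, were at 96.9 and 210 FPKM and at 16.4 and 40.2 FPKM. SMAD6, an inhibitory SMAD, was at 0.723, 4.62, 16.98, 46.7, 73.8 and 11.5 FPKM in day order, 2.75-fold higher on day 4 than on day 3 (2.62 to 2.89). BAMBI, a decoy receptor, was at 48.7 and 128 FPKM, and ID4 at 24.5 and 62.5 FPKM. MSX1 was not called when values were scaled to TPM. ID1 (207 and 399 FPKM), ID2 (42.3 and 75.1 FPKM) and ID3 (107 and 203 FPKM) lay below the call. Of 9 measured BMP ligands 2 rose and none fell, while 4 of the 9 differences were negative and the median was 0.075. Summed over all 14 ligands, the level was 175 FPKM on day 3 and 156 on day 4. BMP4 was at 90.2 and 86.0 FPKM, while BMP6 rose from 0.752 to 2.53 FPKM and GDF6 from 0.245 to 3.35 FPKM, 13.7-fold (7.82 to 26.2). None of 4 measured BMP receptors was called, against 3.45% of all protein-coding genes, with BMPR1A at 6.63 and 7.85 FPKM. The antagonist NOG fell from 7.33 to 2.31 FPKM, 3.18-fold (2.41 to 4.24), and CHRD was at 2.24 and 2.40 FPKM. A search of 300-base RefSeq promoters (GRCh38.p14) for GGCGCC found it in 1 of 11 BMP response genes with a sequence, BAMBI. The shares were 31.4% of measured protein-coding genes, 29.8% of those called higher and 19.0% of all promoters. The window ran from 250 bases before to 50 after the start. No match says only that these letters are not in this window, and control of these genes by BMP was not tested.

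Of the NOTCH genes, 2 ligands fell and 2 target genes rose among 17 measured. DLL3, a ligand of somite-forming mesoderm, was at 14.9, 140, 218, 46.6, 8.29 and 0.618 FPKM in day order, 4.68-fold lower on day 4 (4.45 to 4.92). DLL1 was at 55.3 and 14.6 FPKM, 3.78-fold lower (3.48 to 4.11). HEY1 rose from 2.14 to 7.26 FPKM and HES4 from 10.5 to 25.2 FPKM, while NOTCH2 (15.1 and 14.97 FPKM) and HEY2 (10.9 and 11.04 FPKM) were not called. Of 11 measured FGF ligands 1 fell, and of 17 measured FGF and ERK feedback genes 1 rose and 1 fell. Over all protein-coding genes 3.45% were called in either direction. FGF4 fell from 3.73 to 0.646 FPKM, the ERK phosphatase DUSP6 rose from 21.1 to 54.6 FPKM and the early-response factor EGR1 fell from 4.27 to 1.51 FPKM. Other ERK feedback genes were not called, such as SPRY4 at 83.4 and 88.8 FPKM and ETV5 at 17 and 17.8 FPKM. None of 5 FGF receptors was called, with FGFR1 at 52.4 and 64.3 FPKM.

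Among remaining pathways, IHH, a hedgehog ligand, rose from 1.69 to 4.91 FPKM and its co-receptor BOC from 3.52 to 10.8 FPKM. TGFB2, a ligand active in heart cushion formation, was at 0.334, 0.0121, 0.244, 3.54, 30.9 and 3.66 FPKM in day order, 14.5-fold higher on day 4 than on day 3 (9.03 to 24.9). The receptor TGFBR1 was at 14.95 and 14.6 FPKM. APLNR, the apelin receptor of migrating mesoderm, was at 0.110, 358, 656, 316, 145 and 7.49 FPKM and fell 2.08-fold after day 3 (2.04 to 2.11). NRP1, a co-receptor for VEGF and semaphorins, rose from 6.44 to 16.1 FPKM and PDGFD from 0.735 to 3.63 FPKM, while VEGFA was at 62.2 and 60.6 FPKM. None of 15 measured genes of retinoic acid synthesis, breakdown and response was called, with RARA at 5.05 and 5.14 FPKM. With 3.45% of all protein-coding genes called in either direction, few or no calls would be met in a list of this size. Summed over the 24 listed genes of this pathway, the level was 613 FPKM on day 3 and 518 on day 4.

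**Figure D4:**
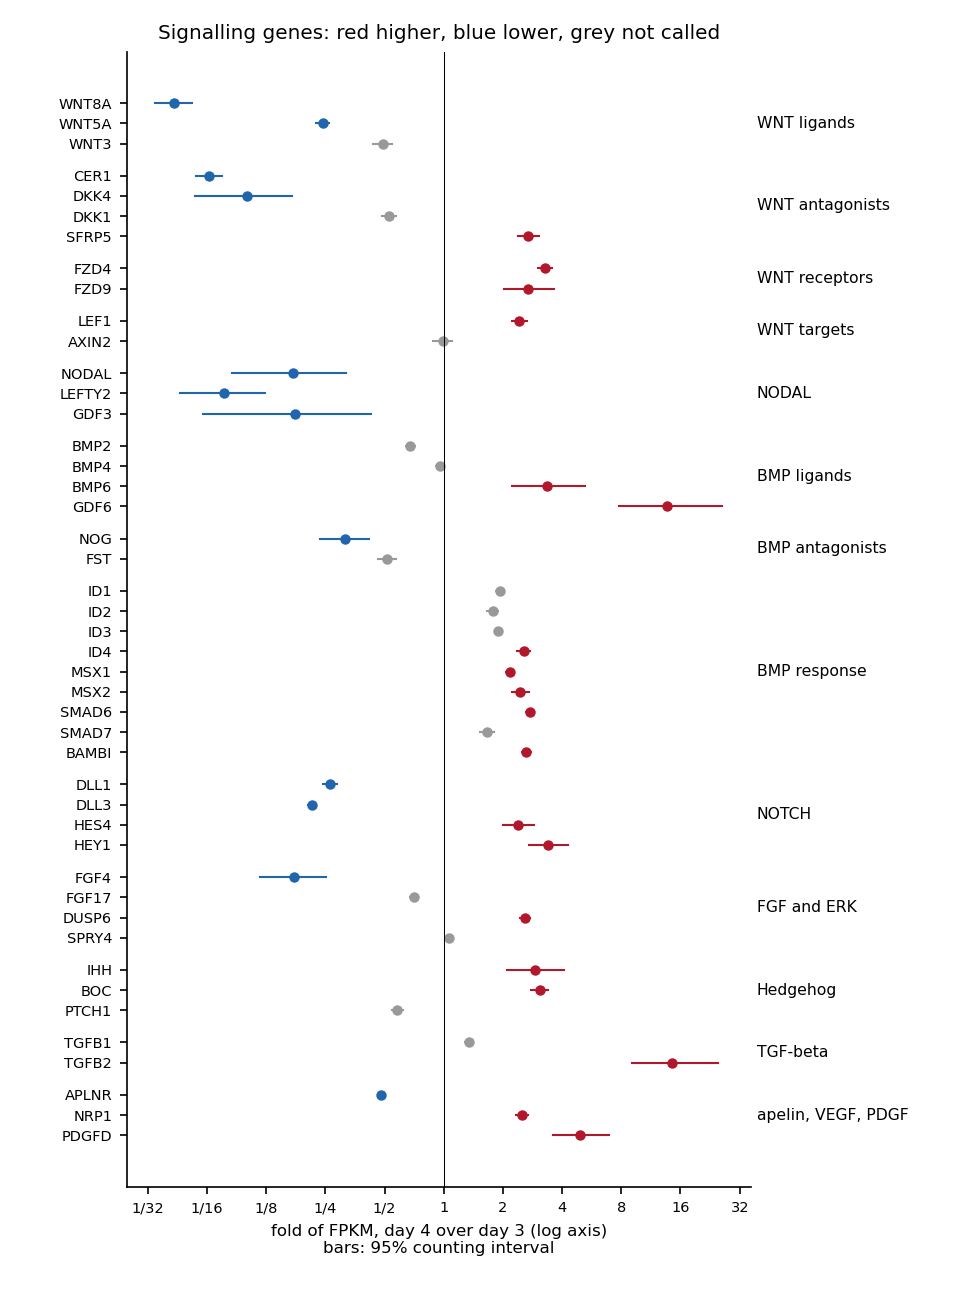
Points give the fold of FPKM, day 4 over day 3, on a log axis for signalling genes grouped by role, with 95% counting intervals as bars, and colour marks genes called higher (red), lower (blue) or neither (grey). WNT8A, CER1 and LEFTY2 lie furthest to the left at 23.6-fold, 15.6-fold and 13.0-fold lower, and GDF6 and TGFB2 furthest to the right at 13.7-fold and 14.5-fold higher.

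Among the metabolic lists, the hypoxia response and glycolysis held the most calls, and all called members of both lists were lower. Of 24 measured genes of glucose transport and glycolysis, 8 fell, none rose and 23 differences were negative, with a median of -0.80. Of 30 genes of the hypoxia response, which hypoxia-inducible factors switch on, 13 fell, none rose and 28 differences were negative, with a median of -0.91. SLC2A1 belongs to both lists. Hypoxia-inducible factors bind a short DNA core that includes ACGTG, so the promoters of the called members were searched for these letters on both strands. RefSeq promoters (GRCh38.p14, 250 bases before to 50 after the start) were found for 19 of the 20 called members, and 13 held the letters (68.4%), against 11 of 27 members that were not called (40.7%). The shares were 26.7% of measured protein-coding genes with a sequence and 21.6% of 27305 promoters in all. A match is a description of the letters and not a bound site, and genes were put on the hypoxia list as known targets of these factors. Shown are the promoters of LOX, with the greatest fall, of PGK1, with the most reads on day 3, and of ANKRD37, where 2 of the matches overlap as CACGTG. Capitals mark ACGTG or its reverse complement, and sequences run 5′ to 3′ on the gene's strand.
LOX: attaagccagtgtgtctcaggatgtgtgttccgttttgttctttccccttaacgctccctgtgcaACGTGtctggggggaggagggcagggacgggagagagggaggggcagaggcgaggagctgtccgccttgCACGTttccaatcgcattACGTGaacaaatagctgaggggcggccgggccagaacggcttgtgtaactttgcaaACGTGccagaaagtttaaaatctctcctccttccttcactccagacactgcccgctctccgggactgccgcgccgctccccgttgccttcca
PGK1: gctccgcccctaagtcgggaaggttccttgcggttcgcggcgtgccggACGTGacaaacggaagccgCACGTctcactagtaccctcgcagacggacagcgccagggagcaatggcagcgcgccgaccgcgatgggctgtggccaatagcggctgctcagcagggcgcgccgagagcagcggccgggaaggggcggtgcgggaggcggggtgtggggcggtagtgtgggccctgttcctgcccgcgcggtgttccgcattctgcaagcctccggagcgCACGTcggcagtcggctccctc
ANKRD37: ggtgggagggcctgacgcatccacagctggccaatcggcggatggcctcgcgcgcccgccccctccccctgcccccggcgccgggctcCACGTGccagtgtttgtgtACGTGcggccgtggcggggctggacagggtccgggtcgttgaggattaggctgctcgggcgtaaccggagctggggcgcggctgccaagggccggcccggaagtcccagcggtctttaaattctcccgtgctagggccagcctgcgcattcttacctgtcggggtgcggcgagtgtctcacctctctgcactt

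The LOX promoter lies at chr5:122078210-122078509 on the minus strand and holds 4 copies, which begin 185, 116, 98 and 42 bases before the start. That of PGK1 lies at chrX:78103998-78104297 on the plus strand with 3 copies, 202 and 183 bases before the start and 28 after it. That of ANKRD37 lies at chr4:185396591-185396890 on the plus strand with 3 matches, 162, 161 and 143 bases before the start. SLC2A1, HK1, PFKFB3, PFKFB4, KDM3A and PDK1 also fell, and no match says only that these letters are not in their window.

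LOX, a secreted oxidase that cross-links collagen, was at 5.51, 4.41, 29.8, 2.64, 1.48 and 209 FPKM in day order. Day 3 stood above its neighbours, and day 4 was 11.3-fold lower (9.86 to 13.0). INSIG2 was at 29.5 and 8.43 FPKM, 3.50-fold lower (3.17 to 3.86), and the demethylase KDM3A at 23.0 and 7.34 FPKM, 3.13-fold lower (2.95 to 3.32). FAM162A (54.6 and 18.2 FPKM), HILPDA (46.7 and 17.4 FPKM) and ANKRD37 (6.46 and 1.91 FPKM) fell by 3.00-fold, 2.68-fold and 3.38-fold. DDIT4, an inhibitor of mTOR signalling, was at 129, 100, 305, 131, 29.9 and 294 FPKM. For LOX and DDIT4 day 3 was the highest library before day 30. Summed over the 30 hypoxia response genes, the level was 1028.5 FPKM on day 2, 1913 on day 3 and 1028.8 on day 4. The factor genes themselves were not called. HIF1A was at 34.3 and 29.4 FPKM. EPAS1, which encodes HIF-2alpha, was higher on day 4, at 0.344 and 1.68 FPKM, and lay just below the call. EGLN3 (3.29 and 2.85 FPKM) and VEGFA were not called either.

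In glycolysis the called genes began with the transporter SLC2A1, at 509, 288, 402, 188, 79.8 and 384 FPKM in day order, 2.13-fold lower on day 4 than on day 3 (2.09 to 2.18). The hexokinases HK1 and HK2 were at 35.5 and 16.6 FPKM and at 111 and 51.3 FPKM. PFKFB4 and PFKFB3, which set the level of the activator of phosphofructokinase, fell 3.18-fold (3.03 to 3.34) and 2.44-fold (2.32 to 2.57). PGK1 was at 355, 257, 402, 154, 82.2 and 105 FPKM, 2.61-fold lower on day 4 (2.56 to 2.67), and ALDOC and GPI fell 2.26-fold and 2.09-fold. ENO1 (783 and 445 FPKM), LDHA (338 and 176 FPKM) and GAPDH (859 and 540 FPKM) lay below the call. PFKM (15.1 and 13.7 FPKM), PFKP (47.5 and 40.4 FPKM) and PFKFB2 (1.68 and 1.73 FPKM) differed least. Summed over the 24 genes, the level was 4135 FPKM on day 2, 5454 on day 3 and 3128 on day 4, so day 3 stood above both neighbours. For SLC2A1, HK2 and PGK1 the day 6 levels of 79.8, 22.8 and 82.2 FPKM were lower again. HK2 was at 43.5 FPKM on day 2, below its day 4 level, and at 111 FPKM on day 30.

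**Figure D5:**
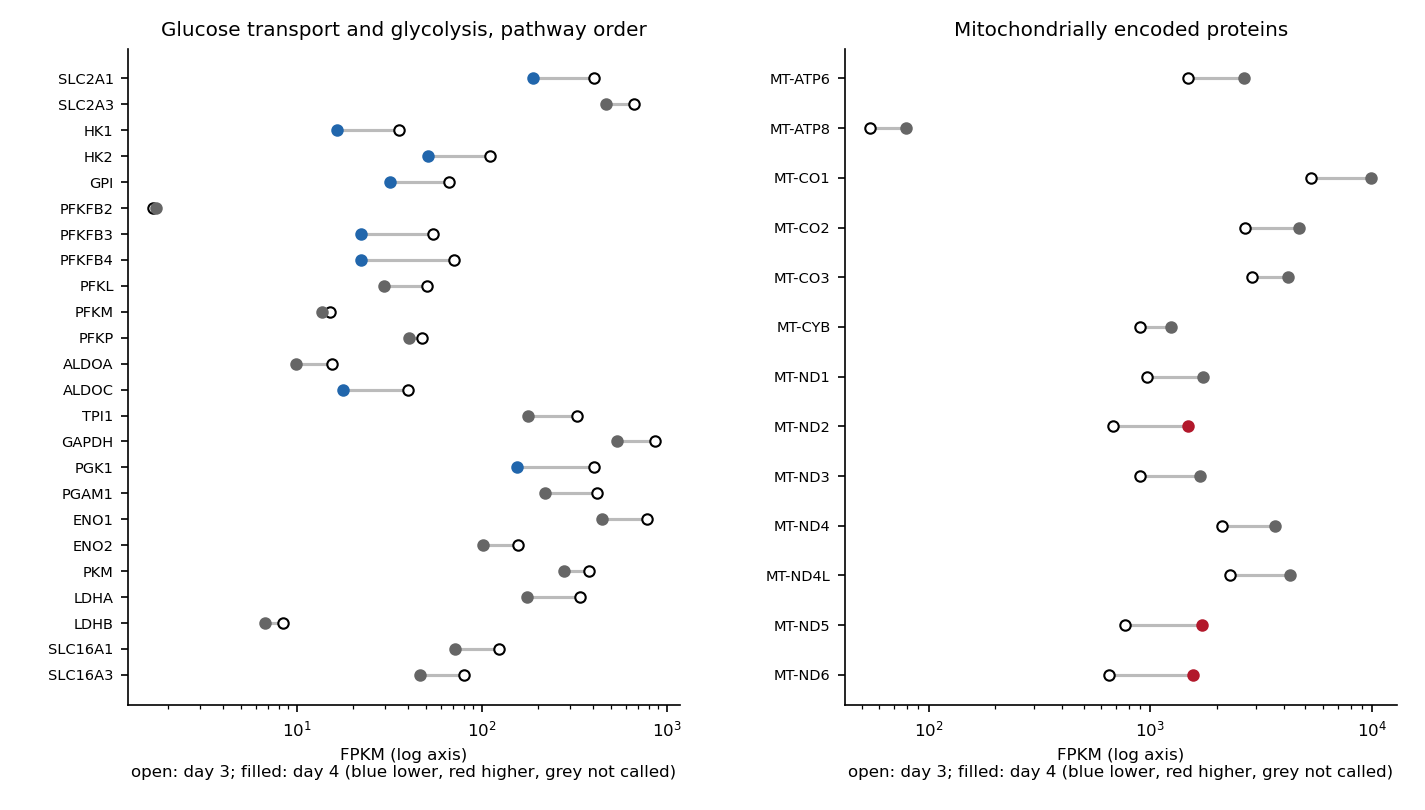
Open circles give FPKM on day 3 and filled circles on day 4, on log axes, for the 24 genes of glucose transport and glycolysis in pathway order (left) and the 13 mitochondrially encoded proteins (right). In the left panel 23 filled circles lie to the left of their open ones, as for PGK1 at 402 and 154 FPKM, with PFKFB2 at 1.68 and 1.73 FPKM as the exception, and in the right panel every filled circle lies to the right of its open one, as for MT-ND6 at 651 and 1560 FPKM.

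The kinases that inhibit pyruvate dehydrogenase gave the only 2 calls among 29 measured genes of pyruvate use and the citric acid cycle. PDK1 was at 39.5 and 16.8 FPKM, 2.36-fold lower (2.27 to 2.45), and PDK3 at 13.8 and 5.94 FPKM, 2.32-fold lower (2.08 to 2.60). The enzyme subunits PDHA1 (18.7 and 19.0 FPKM) and DLST (25.8 and 25.4 FPKM) were not called. All 13 mitochondrially encoded proteins had higher values on day 4, with a median difference of 0.83, and 3 of them were called. MT-ND6 was at 2346, 1364, 651, 1560, 1046 and 625 FPKM in day order, 2.39-fold higher on day 4 than on day 3 (2.32 to 2.47). MT-ND5 rose 2.22-fold and MT-ND2 2.17-fold, and MT-ND2 was not called when values were scaled to TPM. For MT-ND6 the day 4 level stayed below those of day 0, and day 3 was low beside days 2, 4 and 6. Of 71 measured nuclear genes for respiratory chain subunits none was called, against 3.45% of all protein-coding genes. Their median was -0.077, with UQCRH at 83.8 and 83.9 FPKM.

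Among the remaining metabolic lists, that of ATF4 targets held the most calls, with 2 of 19 measured members higher and 2 lower. Over all protein-coding genes 1.85% were higher and 1.6% lower. No member was called among 22 genes of fatty acid oxidation, 25 of cholesterol synthesis and uptake, 11 of fatty acid synthesis and 14 of serine, glycine and one-carbon metabolism. With 3.45% of all protein-coding genes called in either direction, few or no calls would be met in lists of this size. The median differences of these lists were -0.21, 0.20, 0.14 and 0.071 in the same order. ACLY was at 42.6 and 41.2 FPKM and SHMT2 at 41.8 and 39.2 FPKM. Among 19 targets of ATF4, a factor of the amino acid stress response, TRIB3 rose from 2.54 to 8.94 FPKM and the amino acid transporter SLC7A5 from 18.4 to 41.3 FPKM. DDIT4 and the cationic amino acid transporter SLC7A3 fell, the second from 30.0 to 12.8 FPKM. SAT1, which acetylates polyamines, rose from 44.99 to 101 FPKM as the 1 called gene of 19 in its list. None of 8 measured iron genes was called, although FTL, the ferritin light chain, was at 888 and 1680 FPKM. Of 27 measured cell cycle genes BUB1 fell, from 25.2 to 11.2 FPKM, and the list's median was -0.39, with MKI67 at 23.5 and 12.4 FPKM and TOP2A at 74.2 and 39.6 FPKM below the call.

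Several of the largest differences lay outside the lists of factors, signals and metabolism. CST1, a secreted cysteine protease inhibitor, was at 1.03, 19.5, 84.3, 631, 148 and 5.85 FPKM in day order, with its highest library on day 4, 7.48-fold above day 3 (7.02 to 7.99). TRH, the precursor of thyrotropin-releasing hormone, was at 4.16 and 26.1 FPKM and ISM1, a secreted factor, at 2.20 and 14.7 FPKM, and both were below 3 FPKM on day 6. F2RL2, a thrombin receptor, was at 0.061 and 3.60 FPKM on 3 and 195 reads. ATP8B4 rose from 0.180 to 4.79 FPKM, 26.6-fold (18.3 to 40.4). Of 21 measured genes of adhesion and matrix 1 rose and 1 fell. The collagen gene COL1A1 rose from 18.5 to 73.8 FPKM, 3.99-fold (3.83 to 4.17), on the way to 270 and 668 FPKM on days 6 and 30, while COL6A1 fell from 297 to 146 FPKM and was not called when totals left out mitochondrially encoded genes. The pericyte gene RGS5, the 1 called member of 6 smooth muscle and pericyte markers, rose from 4.54 to 18.8 FPKM. Among genes that fell, the peptide gene NTS was at 58.0 and 6.23 FPKM, LZTS1 at 50.5 and 7.44 FPKM, LGALS12 at 13.7 and 1.48 FPKM and CHGA at 14.2 and 2.41 FPKM.

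The libraries of days 2 and 6, which the choice of genes did not use, were compared under the same rule. Their span includes the step from day 3 to day 4. Over all 16376 genes, 1186 were higher on day 6 than on day 2 (7.24%) and 961 were lower (5.87%). Of the 403 genes that rose from day 3 to day 4, 157 (39.0%) were higher on day 6 than on day 2 and 21 (5.21%) were lower. Of the 366 that fell, 148 (40.4%) were lower and 13 (3.55%) were higher. Among protein-coding genes the shares in the same direction were 119 of 223 (53.4%) and 104 of 193 (53.9%). The matching share over all protein-coding genes was not computed for days 2 and 6. The median of log2(FPKM + 1) on day 6 minus day 2 was 1.20 for the protein-coding genes that rose and -1.30 for those that fell. PAX8, ETV2, ISM1 and TRH were among the genes that rose and then stood below 3 FPKM on day 6.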

How the data were processed

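The authors deposited 1 table of FPKM values for 58735 genes in 6 libraries, with gene positions, lengths, classes and transcription factor families, per the file headers. Per the labels' protocols, mRNA was purified with poly-T beads and copied from random hexamers. CASAVA, HISAT2 and featureCounts 1.5.0-p3 are named in the submitters' processing notes, with settings, strand use and genome build not given in the sources used here. Reads of overlapping, antisense or near-identical genes may not be separated. All gene IDs, starts, ends and strands equal GENCODE 29 on GRCh38.

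FPKM times gene length was a whole multiple of 1 read, within 0.001, for 100% of values above 0, which recovered whole reads. Library totals lay between 13500887 and 15526924 reads. The library size by which the FPKM were scaled was not the read total. It was 0.980, 1.037, 1.062, 1.061, 1.121 and 0.826 times that total in the order of the 6 days. Genes at or above 1 FPKM on either day were compared in log2(FPKM + 1) with a pseudocount of 1. Fold intervals are exact conditional binomial 95% intervals. No count model or test was fitted, and the procedure was tested on simulated reads. Python 3.11.15, numpy 2.4.6, pandas 2.3.3 and scipy 1.17.1 were used.

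Named genes are the 15 protein-coding and 4 long noncoding genes with the largest rise and fall, up to 6 called members with the largest and 3 with the smallest difference of each list, members that go against their list, and defining markers, and not all of them are printed. Further genes were chosen after their values were seen: HAND1, TWIST1, SNAI1, SNAI2, EOMES, ID1, ID3, WNT3, WNT3A, DKK1, KDR, ESAM, EPAS1, LDHA, ENO1, GAPDH, GPI, HK1, FTL, MKI67, TOP2A, and further uncalled genes in the plots. Lists and members were chosen with earlier results of these data known.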

Additional observations from a re-analysis of the deposited data

How the results depend on the processing

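The 403 higher and 366 lower genes became 784 and 691 with a pseudocount of 0.1, 188 and 214 with a minimum of 5 FPKM, and 767 and 1034 with TPM. TPM values are 4.24 times the FPKM on day 3 and 3.86 times on day 4, so a pseudocount of 1 weighs less, and the median difference of all genes shifted to -0.12. Without the interval the counts were 693 and 588, with an interval past 2-fold 261 and 231, and among protein-coding genes alone 223 and 193. They were 423 and 377 when scaled by total reads, 406 and 378 by a trimmed mean of M-values, and, in alternatives chosen after seeing the data, 392 and 364 after subtracting the median of GC bins and 466 and 353 when totals left out mitochondrially encoded genes. Of 138 named genes that were called, 138 kept their call with a pseudocount of 0.1, total reads or the trimmed mean. With an interval past 2-fold 8 lost it: EVX1, GATA5, COL6A1, TBX6, FOXH1, HES4, SOX18 and AL357992.1. With a minimum of 5 FPKM 36 were no longer compared, among them NANOG, NODAL, TBX2, TAL1, TGFB2, MYH6, HOXB4, HOXB6, HOXB8 and HOXB9. EVX1, MSX1 and MT-ND2 lost it with TPM, TCF21 and GATA5 after GC subtraction, and COL6A1 without mitochondrially encoded genes. List medians changed sign for lateral plate factors without mitochondrially encoded genes (0.0178), for T-box genes (-0.786) and FGF ligands (0.113) with a minimum of 5 FPKM, and for fatty acid synthesis with TPM (-0.00023). No paired analysis was possible because each day has 1 library, and for the same reason no library could be left out. Depth limits low genes: 3 reads of a gene of 1 kilobase equal 0.209 FPKM on day 3 and 0.190 on day 4, and 270 of the 769 called genes had under 50 reads over both days.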

Other observations

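Long noncoding genes held 93 of the 403 higher and 76 of the 366 lower genes, out of 1973 measured. The greatest fall in log2(FPKM + 1) was in AL354821.1, and WNT5A-AS1, AL357992.1 and LNCPRESS2 came next. AL354821.1 was at 251, 49.6, 9.22, 0.626, 0 and 0 FPKM in day order, and LNCPRESS2 at 118, 24.2, 5.21, 0.308, 0.188 and 0 FPKM. AL354821.1 and LNCPRESS2 were highest in the day 0 library and lower in each library up to day 6. Day 4 levels of AL354821.1 were 14.7-fold below day 3 (95% counting interval 7.22 to 35.0) on 107 and 8 reads. Among long noncoding genes that rose, AC012574.1 had no read on days 0, 2 and 3 and was at 4.77 FPKM on day 4 and 9.41 on day 6, on 19 reads on day 4. LINC00379 was at 0.384 and 6.04 FPKM on 3 and 52 reads.

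Several noncoding genes that carry the name of a neighbouring or overlapping coding gene were called together with it. Of 266 measured pairs, the noncoding gene was called in 18, the coding gene was called in the same direction in 8 of these, was not called in 10 and was called in the opposite direction in 0. The 8 were WNT5A-AS1, GATA3-AS1, TGFB2-AS1, TBX2-AS1, UPK1A-AS1, FAM160A1-DT, GATA2-AS1 and ISM1-AS1. WNT5A-AS1 fell from 37.6 to 6.71 FPKM, beside WNT5A from 30.5 to 7.40 FPKM. TBX2-AS1 rose from 0.636 to 6.82 FPKM, beside TBX2 from 0.335 to 4.57 FPKM. GATA3-AS1 rose from 6.05 to 20.2 FPKM on 206 and 758 reads. TGFB2-AS1 had no read on day 3 and 31 on day 4, and its gene model does not overlap that of TGFB2. The others overlap their partner except FAM160A1-DT, and without strand in the counting their reads could not be told from those of the partner. The pairs were chosen after the values were seen.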
